A study of Mus musculus with 4 samples.

Results

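The cornified envelope is the tough shell of cross-linked protein that replaces the plasma membrane of a keratinocyte as it dies and becomes part of the outer skin barrier. Its precursors include loricrin, involucrin, the small proline-rich (Sprr) and late cornified envelope (Lce) proteins and the large S100-fused proteins of the filaggrin type, many of whose genes lie side by side in the epidermal differentiation complex, on chromosome 3 in the mouse. Transglutaminases join the precursors to each other and to a scaffold of envoplakin and periplakin. In tail skin, the interscale epidermis has a granular layer rich in loricrin and filaggrin, while the scale epidermis cornifies without one.

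Members were taken by gene symbol: every gene whose name starts with Lce or Sprr, and 20 further genes for envelope precursors, transglutaminases and corneocyte proteins. They came to 42 genes with a probe set of their own among 18193 genes measured, and to 55 probe sets among 45037. Of these probe sets, 52 carried 1 gene symbol, and 3 carried several Sprr2a symbols and name no single gene here. A further 16 genes that fit the rule, among them Flg2, Crnn, Sprr4, Lce6a, Lce1e and Lce3d, had no probe set of their own and were not analysed here. Of the 42 genes, 33 lie in the complex and 9 lie elsewhere in the genome.

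RNA came from basal interfollicular cells sorted from mouse tail epidermis as positive for integrin alpha 6, which marks basal keratinocytes, and negative for the bulge stem cell marker CD34. All 4 arrays came from mice carrying K14CreER, a tamoxifen-dependent Cre expressed from a basal keratinocyte promoter, and SmoM2, a constantly active form of the Hedgehog transducer Smoothened, so there was no group without SmoM2. The SmoM2 group (K14CreER:SmoM2, 2 arrays) kept Sox9, a transcription factor of hair follicle progenitors, and the Sox9cKO group (K14CreER:SmoM2:Sox9cKO, 2 arrays) carried a conditional Sox9 knockout. Tamoxifen was given at 2.5 mg on each of 10 days, and cells were taken 9 weeks after the first dose. The labels give neither the age of the mice nor the number of mice behind an array, so p-values here reflect how far these samples differ, which may be technical.

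Values are log2 signals, as deposited, and are given in the order SmoM2 replicates 1 and 2, then Sox9cKO replicates 1 and 2. A gene is represented by its probe set with the highest mean over the 4 arrays. A member rose or fell where limma gave an adjusted p under 0.05 over all genes. Counts at an unadjusted limma p under 0.05 are also given, but the share of all genes under that limit was not counted. An unadjusted p of 0.05 went with an adjusted p of 0.281 here (the gene Dst), so such counts alone say little. In bulk RNA, fewer cells of a type and less RNA per cell cannot be told apart. Signals of different probe sets are not comparable in level.

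The arrays had medians between 5.45 and 5.48, and correlated across probe sets at 0.991 within each genotype against 0.978 to 0.980 between genotypes. The most responsive Sox9 probe set read 10.21 and 10.02 in SmoM2 and 6.75 and 5.70 in Sox9cKO (log2 change -3.89, adjusted p = 0.00171 over all probe sets). The other 2 Sox9 probe sets did not pass (log2 changes -0.75 and -0.41), and their place relative to the deleted part is unknown here. All 9 basal keratinocyte markers were above the array medians, and Cd34 was below them on every array. Y-linked transcripts were high in SmoM2 replicate 2 and Sox9cKO replicate 1 and low on the other 2 arrays, so each genotype held 1 array of each kind.

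Sequences just before the transcription start are shown for Prr9 and Sprr2i, which had the largest rise and the largest fall among the members. They are also shown for Lor, the neighbour of Prr9, and for Lce1 genes. Of the Lce1 genes, 6 in a row rose in the chromosomal order of the members and other listed genes of the complex. RefSeq promoter windows (build GRCm38.p6) were found for 36 of the 42 genes. Each line gives the 150 bases before the start, read 5′ to 3′ on the gene's own strand. In the first set, capitals mark a TATA box (TATAAA) and an AP-1 motif (TGANTCA), the binding motif of the Fos and Jun factors that act on many genes of this complex. Prr9 lies at chr3:92123948-92124097 on the minus strand, Lor at chr3:92083143-92083292 on the minus strand and Sprr2i at chr3:92407841-92407990 on the plus strand.
Prr9: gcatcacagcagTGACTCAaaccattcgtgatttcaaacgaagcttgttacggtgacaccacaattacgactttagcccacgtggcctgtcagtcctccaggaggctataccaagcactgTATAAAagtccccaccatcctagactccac
Lor: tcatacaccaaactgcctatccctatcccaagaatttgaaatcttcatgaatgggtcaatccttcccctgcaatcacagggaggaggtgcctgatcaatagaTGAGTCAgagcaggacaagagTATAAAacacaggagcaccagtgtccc
Sprr2i: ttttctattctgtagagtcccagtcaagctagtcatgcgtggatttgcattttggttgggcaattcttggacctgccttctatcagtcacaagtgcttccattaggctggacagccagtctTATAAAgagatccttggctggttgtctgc

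The promoters of the Lce1 genes that rose resembled each other, as did those of the measured Sprr2 genes, none of which rose by limma. The second set shows 4 Lce1 genes that rose in Sox9cKO cells and Lce1g, whose signal was low on all arrays. Capitals mark the best match to the 13 bases actgtctcacagg, the longest string found in at least 6 of the 7 Lce1 promoters available for genes that rose, and chosen for that reason. Lce1a1 lies at chr3:92648308-92648457 (minus strand), Lce1a2 at chr3:92670316-92670465 (minus strand), Lce1c at chr3:92679097-92679246 (plus strand), Lce1i at chr3:92778900-92779049 (minus strand) and Lce1g at chr3:92752339-92752488 (minus strand).
Lce1a1: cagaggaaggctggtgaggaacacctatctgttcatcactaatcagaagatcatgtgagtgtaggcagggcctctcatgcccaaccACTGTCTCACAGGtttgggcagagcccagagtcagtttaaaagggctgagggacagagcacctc
Lce1a2: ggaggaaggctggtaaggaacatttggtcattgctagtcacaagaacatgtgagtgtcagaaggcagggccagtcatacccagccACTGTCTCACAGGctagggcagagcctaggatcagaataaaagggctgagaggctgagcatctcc
Lce1c: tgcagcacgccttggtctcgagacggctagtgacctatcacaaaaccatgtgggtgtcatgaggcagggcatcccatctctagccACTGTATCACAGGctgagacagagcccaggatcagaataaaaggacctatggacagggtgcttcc
Lce1i: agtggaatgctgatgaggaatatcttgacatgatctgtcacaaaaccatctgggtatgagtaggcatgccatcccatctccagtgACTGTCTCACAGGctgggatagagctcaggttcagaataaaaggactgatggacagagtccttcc
Lce1g: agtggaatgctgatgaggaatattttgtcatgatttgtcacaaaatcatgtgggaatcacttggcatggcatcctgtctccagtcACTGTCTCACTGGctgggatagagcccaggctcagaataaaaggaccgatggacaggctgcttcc

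Counting from 1 at the 5′ end of the 13 bases, the Lce1c window differed by C6A and the Lce1g window by A11T. The match began at position -64 or -65 before the start in each of these genes. The exact string stood in 7 of 32851 promoter windows of the mouse genome (0.0213%, either strand), all of them Lce1 genes, including Lce1e, which was not measured. No Lce3 promoter held it (0 of 4). Over the 250 bases before the start, the Lce1 genes that rose were 61.4% to 81.3% identical in pairs (median 67.3%), against 47.3% to 57.7% between Lce1 and Lce3 genes. Those that rose were 50.5% to 85.6% identical to the other 3 Lce1 genes (median 53.9%), and those 3 were 52.7% to 55.6% identical to each other. Lce1l and Lce1m thus lay in the range of Lce1 against Lce3 with every Lce1 promoter compared. Lce1g was 85.6% identical to Lce1i, the closest pair of all members, although the signal of Lce1i rose and that of Lce1g did not pass the test. These likenesses are descriptions of sequence and were not tested against the expression values.

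Envelope genes moved mostly upwards in the Sox9cKO cells. Of the 42 members, 17 rose and 2 fell, together 45.2%, against 6.19% of all genes tested (2.66% higher, 3.53% lower). The median log2 change of the members was 0.40, against 0.02 over all genes. The gains lay in the Lce1 genes, loricrin, Prr9, Kprp, the S100-fused genes, Tgm3, Tgm5 and sciellin. By limma no Sprr or Lce3 gene and neither plakin rose, and of these genes only the plakin gene Ppl was higher at an unadjusted p under 0.05. The 3 probe sets shared by several Sprr2a genes stand outside this count. They were higher at an unadjusted p under 0.05 in the fit over probe sets, but did not pass the adjusted test. At least a 2-fold difference with arrays of the genotypes not overlapping was seen for 17 members upwards and 3 downwards, against 4.16% of all genes (1.75% higher, 2.41% lower). At any size of difference, 21 members were higher and 6 lower without overlap, against 47.9% of all genes (26.0% higher, 21.8% lower), so lack of overlap alone says little with 2 arrays against 2. Of the 19 called members, 12 were also called in each of the 4 fits that left out 1 array.

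**Figure D1:**
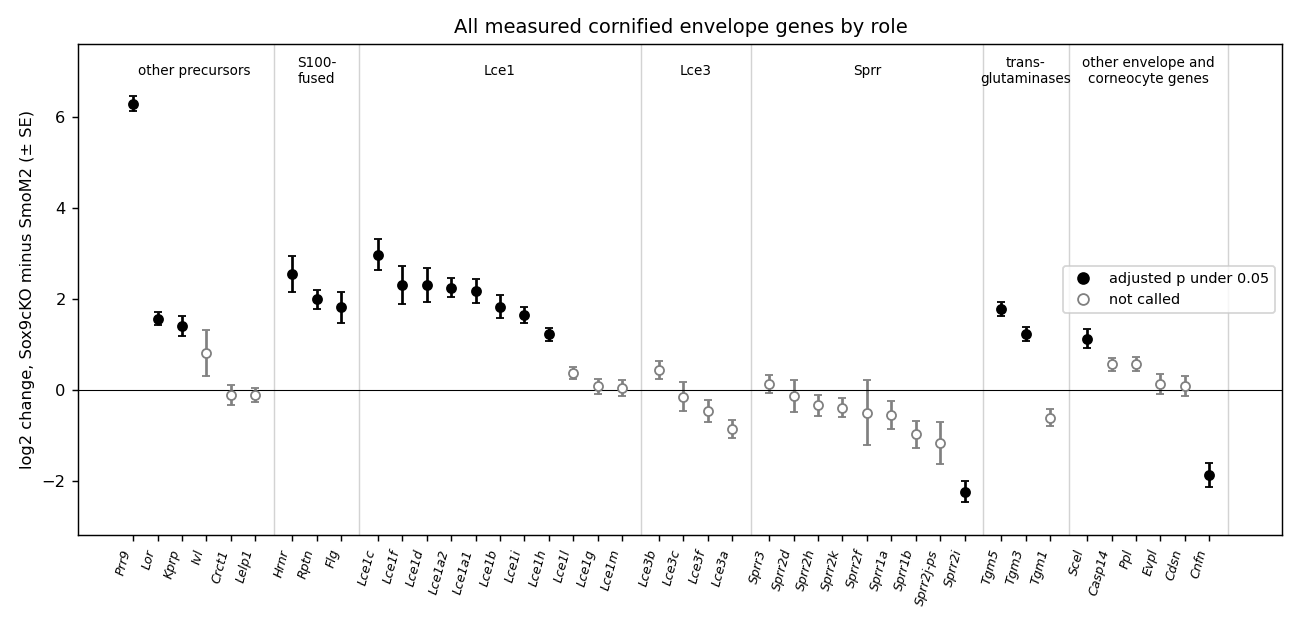
Log2 change (Sox9cKO minus SmoM2, vertical axis) with its standard error for all 42 measured members, grouped by role. Filled points passed an adjusted p under 0.05 and open points did not. Prr9 stands at 6.28, 8 of 11 Lce1 genes lie between 1.22 and 2.97, and 8 of 9 Sprr genes lie below 0.

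**Figure D2:**
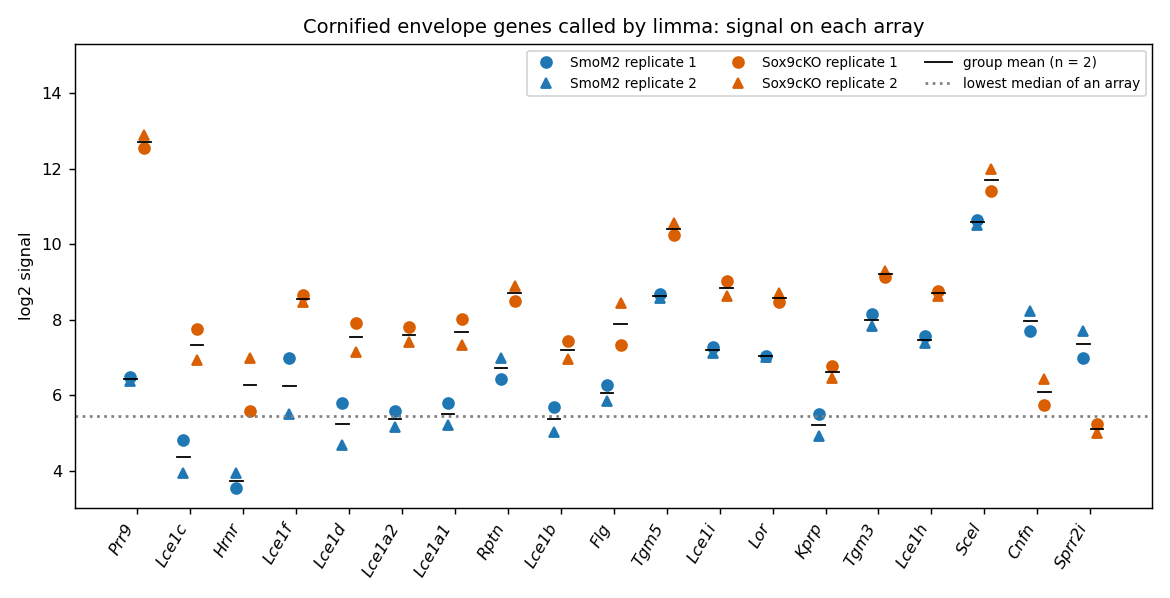
Log2 signal on each of the 4 arrays for the 19 called members, ordered by their change. Blue marks SmoM2 and orange Sox9cKO, circles replicate 1 and triangles replicate 2, black bars the group means and the dotted line the lowest array median (5.45). In each of the 19 genes both arrays of one genotype lie above both arrays of the other.

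Among the scaffold precursors outside the large families, Prr9, Lor and Kprp rose. Prr9, which encodes a proline-rich protein and neighbours loricrin in the complex, read 6.49, 6.38, 12.54 and 12.89. Its arrays were far apart between genotypes and close within them, a 77.9-fold difference (log2 6.28, SE 0.16, adjusted p = 2.56e-05). It was the largest increase among all genes tested.

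Loricrin (Lor), the main protein of the mature envelope, read 7.04, 7.01, 8.47 and 8.70, with no overlap between genotypes. The change was 1.56 (SE 0.14, adjusted p = 0.00135), a 2.95-fold difference. A further Lor probe set rose by 1.52 in the fit over probe sets (adjusted p = 0.00526), and the remaining one was dim, at 4.33, 4.50, 4.54 and 4.81. Kprp, a keratinocyte proline-rich protein, read 5.51, 4.91, 6.76 and 6.44, which was 2.63-fold higher in Sox9cKO (adjusted p = 0.0121). Without SmoM2 replicate 2 its adjusted p was 0.0608.

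Involucrin (Ivl), an early precursor laid down at the cell border, did not pass. Its 2 probe sets read 7.04, 5.61, 7.68 and 6.58, and 5.33, 4.97, 6.23 and 5.57. In both, replicate 1 was above replicate 2 in each genotype. In the first, which stood for the gene, the genotypes overlapped and the arrays of a genotype differed by more than the genotypes did (log2 change 0.81, adjusted p = 0.481). In the second both Sox9cKO arrays were higher, and it did not pass in the fit over probe sets (log2 change 0.75, adjusted p = 0.186). Crct1, a cysteine-rich protein gene, and Lelp1, a proline-rich one, had log2 changes of -0.11 and -0.12 and overlapping arrays.

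The 3 measured members of the S100-fused type, Flg, Hrnr and Rptn, rose. Such genes encode large repeat proteins of the granular layer and follicle that carry a calcium-binding S100 domain. Repetin (Rptn) read 6.44, 6.98, 8.50 and 8.89, a 3.96-fold difference (log2 1.98, SE 0.22, adjusted p = 0.00279). Its further probe sets, both dim, changed by 0.11 and 0.06 and did not pass. With its probe sets averaged, the change was 0.72. Filaggrin (Flg), which bundles keratin filaments and is later broken down to skin moisturising factors, read 6.27, 5.85, 7.32 and 8.43 (log2 1.82, SE 0.34, adjusted p = 0.0235). Hornerin (Hrnr) read 3.54, 3.93, 5.59 and 6.97 (log2 2.54, SE 0.40, adjusted p = 0.0121). The genotypes did not overlap in any of the 3, but the Sox9cKO arrays differed from each other, with replicate 2 the higher. The SmoM2 signals of Hrnr lay below the array medians, so the size of its difference is not exact. The calls of Flg and Hrnr were lost without SmoM2 replicate 1 (adjusted p = 0.0886 and 0.101) and without SmoM2 replicate 2 (0.163 and 0.071), and with limma's trend and robust options (0.0508 and 0.085).

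Keratins of the upper epidermal layers showed the same inequality between the Sox9cKO arrays. Krt2, a keratin of the granular and upper spinous layers, read 4.96, 3.93, 5.53 and 10.24, and Krt77, a suprabasal keratin, read 4.85, 4.75, 5.51 and 8.82. Neither passed the test (adjusted p = 0.212 and 0.214). Without Sox9cKO replicate 1 both did, at log2 changes of 5.80 (adjusted p = 0.000363) and 4.03 (adjusted p = 0.000139). Trichohyalin (Tchh) is an S100-fused protein of the inner root sheath, and its gene lies next to Rptn among the measured members and listed genes of the complex. It read 5.86, 6.26, 7.94 and 7.75 and rose by 1.78 (adjusted p = 0.00179). Its relative Tchhl1, also of the S100-fused type and no member, was below the array medians on every array and did not pass (log2 change -0.21, adjusted p = 0.595). The part of cell composition in the Flg and Hrnr values was not tested.

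The Lce1 genes, which encode small envelope proteins deposited late in cornification, formed the largest group that rose. Of 11 measured members, 8 rose and none fell by limma, with a median log2 change of 1.83. At an unadjusted p under 0.05 none of the 11 was lower and 9 were higher, Lce1l being the ninth. Lce1c read 4.81, 3.93, 7.75 and 6.92, a 7.83-fold difference (log2 2.97, SE 0.35, adjusted p = 0.00332). Lce1a2 read 5.58, 5.14, 7.80 and 7.41 (log2 2.24, SE 0.20, adjusted p = 0.00124). Lce1a1 read 5.79, 5.22, 8.02 and 7.34 (log2 2.17, SE 0.27), and its second probe set gave 2.44. In all 3 the SmoM2 arrays were near or below the array medians and the Sox9cKO arrays well above them. Both SmoM2 signals of Lce1c lay below the medians, so the size of its difference is not exact.

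The other Lce1 genes that rose were also higher on both Sox9cKO arrays. In SmoM2, Lce1h and Lce1i were already well above the array medians, as was Lce1f on replicate 1. Lce1b read 5.69, 5.03, 7.43 and 6.95, Lce1d 5.79, 4.67, 7.92 and 7.15, and Lce1f 6.99, 5.51, 8.65 and 8.46. Lce1i read 7.26, 7.12, 9.03 and 8.64, and Lce1h 7.58, 7.37, 8.76 and 8.63. Their log2 changes were 1.83, 2.30, 2.31, 1.64 and 1.22, with adjusted p values from 0.00223 to 0.0203. The calls of Lce1d and Lce1f were lost with limma's trend and robust options (adjusted p = 0.0543 and 0.12), that of Lce1d without SmoM2 replicate 2 (0.0635) and that of Lce1f without Sox9cKO replicate 1 (0.0587).

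The remaining Lce1 genes gave low signals throughout. Lce1g read 4.46, 4.18, 4.51 and 4.29, Lce1m 4.05, 3.69, 4.06 and 3.78, and Lce1l 3.37, 3.45, 3.76 and 3.80. Those of Lce1g and Lce1m overlapped between genotypes, and Lce1l was higher in both Sox9cKO arrays by 0.37 (adjusted p = 0.192). All 3 were below the array medians, so a change in them could not be read from these arrays.

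Lce1 signals were also higher on replicate 1 than on replicate 2 in both genotypes. This held for 10 of 11 Lce1 genes in SmoM2, with a median difference of 0.43, and for 10 of 11 in Sox9cKO, with a median of 0.39. Over all genes, 9638 of 18193 were higher on replicate 1 in SmoM2 and 8503 in Sox9cKO. The labels do not say what the replicate number stands for. The Lce1 genes thus ran opposite to Flg and Hrnr within the Sox9cKO pair, although both sets rose between genotypes.

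Several Lce1 probe sets belong to the types that Affymetrix marks as shared between related transcripts. Lce1d, Lce1h and Lce1i were read by _x_at probe sets alone, so signal from near-identical neighbours cannot be separated from their own. With all _x_at and _s_at probe sets left out, 35 members could be tested, Lce1d, Lce1h and Lce1i not among them, and 14 rose and 3 fell. Lce1a1 (through its other probe set), Lce1a2, Lce1b, Lce1c and Lce1f were among those called in that fit.

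The Lce3 genes, relatives that are known to be induced in wounded and inflamed skin, did not rise by limma. Of 4 measured members none was called, and at an unadjusted p under 0.05 Lce3a alone passed. Lce3a read 6.47, 5.92, 5.24 and 5.42, lower in both Sox9cKO arrays (log2 change -0.87, SE 0.20, adjusted p = 0.0509). It passed with dim probe sets left out (adjusted p = 0.0485), with limma's trend and robust options (0.0444) and without SmoM2 replicate 2 (0.0376). Lce3b read 7.61, 7.64, 7.79 and 8.33, Lce3c 7.99, 8.43, 7.56 and 8.55, and Lce3f 7.38, 7.67, 6.71 and 7.40. Their changes were 0.44, -0.15 and -0.47. A difference in response between Lce1 and Lce3 genes was not tested.

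The Sprr genes, whose products cross-link other precursors and are known to be raised in stressed epidermis, had 1 of 9 measured members that fell and none that rose by limma. At an unadjusted p under 0.05, 3 were lower (Sprr2i, Sprr1b and Sprr2j-ps) and none was higher, and in 6 of the 9 the genotypes overlapped. Sprr2i read 6.99, 7.70, 5.23 and 4.99. Both SmoM2 arrays were above both Sox9cKO arrays, a 4.71-fold difference (log2 change -2.24, SE 0.24, adjusted p = 0.00236). Its Sox9cKO signals lay below the array medians, so the size of the difference is not exact. The other 8 had log2 changes from -1.17 to 0.12, and the median of all 9 was -0.51.

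SmoM2 replicate 2 was higher than replicate 1 in 8 of the 9 Sprr genes, and Sox9cKO replicate 1 was higher than replicate 2 in 7 of the 9. Within each genotype, most Sprr genes were thus higher on the array with high Y-linked transcripts. Whether Sprr signals depend on that difference between arrays was not tested. The within-genotype spread was wide. Sprr1b read 11.08, 11.94, 10.74 and 10.31 (log2 change -0.98, adjusted p = 0.112), and Sprr1a 10.52, 11.43, 10.16 and 10.68 (-0.56, adjusted p = 0.417). Sprr2f read 5.53, 8.14, 6.10 and 6.57, so that the difference between the SmoM2 arrays exceeded that between the genotypes. Sprr2j-ps, a pseudogene, read 4.65, 6.26, 4.46 and 4.12. Without SmoM2 replicate 1, Sprr1b, Sprr2f and Sprr2j-ps also passed (adjusted p = 0.0397, 0.0219 and 0.0128), and 5 members were then lower. Sprr2d read 10.59, 11.62, 11.32 and 10.61, Sprr2h 11.15, 11.64, 11.31 and 10.80, and Sprr2k 6.40, 6.84, 6.44 and 6.02, all 3 with overlapping genotypes. Sprr3 was dim, at 4.59, 4.41, 4.90 and 4.35.

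The probe sets shared by several Sprr2a genes had differences of the opposite sign. They read 9.21, 7.79, 10.40 and 9.78 for the first, 9.27, 8.44, 10.54 and 9.89 for the second and 3.33, 3.52, 4.63 and 3.98 for the third. Sox9cKO was higher on every array, by 1.59, 1.36 and 0.88. In the limma fit over probe sets the unadjusted p was 0.00809, 0.00334 and 0.00583, but none passed (adjusted p = 0.12, 0.0711 and 0.0994). In that fit 20 of the 55 member probe sets rose and 3 fell, against 3.82% of all probe sets called (1.48% higher, 2.34% lower).

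The cross-linking enzymes did not move together. Tgm5 read 8.67, 8.58, 10.24 and 10.55, a 3.41-fold rise (log2 1.77, SE 0.16, adjusted p = 0.00114). Tgm3, which acts in the epidermis and in the hair follicle, read 8.14, 7.82, 9.13 and 9.28 (log2 1.23, SE 0.16, adjusted p = 0.0053), and its second probe set read 6.15, 6.18, 6.63 and 6.84. Both enzymes were higher on each Sox9cKO array than on either SmoM2 array. Tgm1, the membrane-bound enzyme that starts envelope assembly, read 7.93, 8.45, 7.58 and 7.57. It was lower on both Sox9cKO arrays, but did not pass (log2 change -0.61, SE 0.19, adjusted p = 0.136).

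The genes for the plakin scaffold and corneocyte proteins split. Sciellin (Scel), an envelope precursor, had a second, dim probe set that changed by 0.05 and did not pass. The probe set that stood for the gene read 10.63, 10.52, 11.41 and 11.98 and rose 2.18-fold (log2 1.12, SE 0.20, adjusted p = 0.0198). Its call was lost without SmoM2 replicate 1 or 2 (adjusted p = 0.0978 and 0.131). Periplakin (Ppl) read 9.39, 9.45, 9.82 and 10.13 (log2 change 0.56, adjusted p = 0.0944), and envoplakin (Evpl) 9.61, 9.93, 9.62 and 10.16 (0.13, adjusted p = 0.835). Corneodesmosin (Cdsn), an adhesive protein of corneocyte junctions, read 5.83, 5.15, 5.57 and 5.56 (0.08, adjusted p = 0.913).

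Cornifelin (Cnfn), an envelope component, went against most members. It read 7.69, 8.22, 5.74 and 6.41, with no overlap between genotypes, a 3.67-fold decrease (log2 change -1.88, SE 0.26, adjusted p = 0.00689). Without SmoM2 replicate 2 its adjusted p was 0.0605. Casp14, a protease that takes part in filaggrin breakdown, was read in opposite directions by its 2 probe sets. The _x_at probe set, which stood for the gene, read 6.98, 7.05, 7.49 and 7.65 (log2 change 0.56, adjusted p = 0.0665). The other read 7.91, 7.52, 6.56 and 6.48 and fell in the fit over probe sets (log2 change -1.19, adjusted p = 0.0128), so no direction is given for this gene. The call of that probe set was lost without SmoM2 replicate 1, Sox9cKO replicate 1 or Sox9cKO replicate 2 (adjusted p = 0.0513, 0.0503 and 0.0623).

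**Figure D3:**
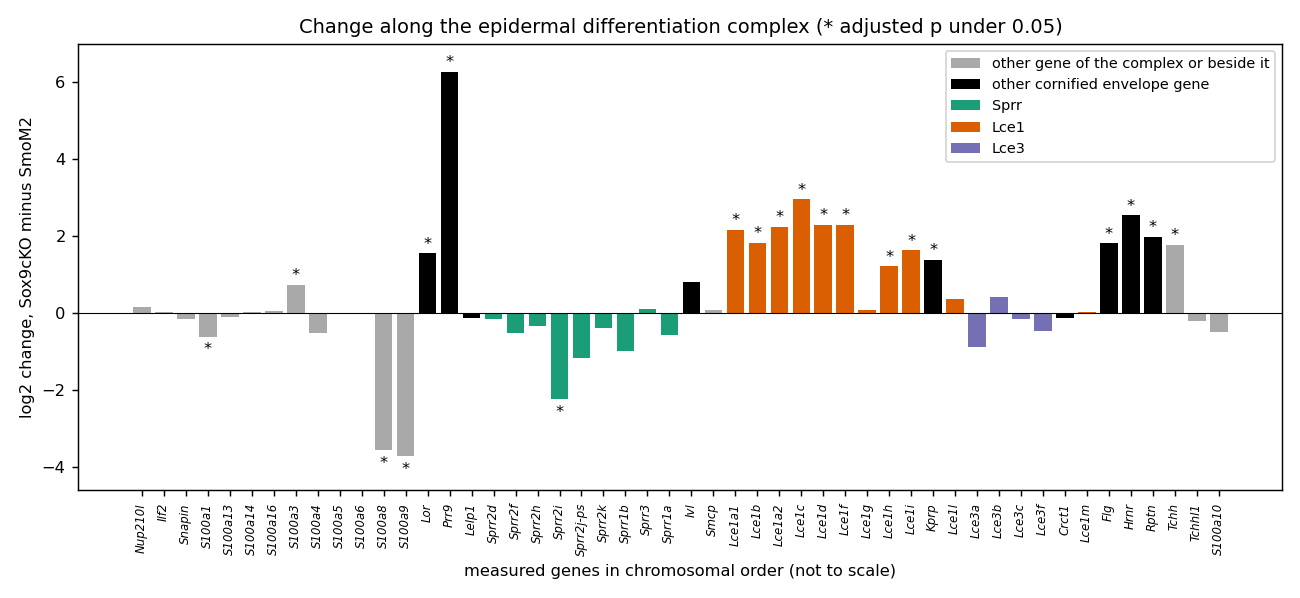
Log2 change (Sox9cKO minus SmoM2, vertical axis) of 50 measured genes of the epidermal differentiation complex and beside it, in chromosomal order (horizontal axis, not to scale), with bars coloured by family and asterisks for an adjusted p under 0.05. The 6 measured Lce1 genes from Lce1a1 to Lce1f form the longest run of called neighbours among the genes shown.

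The order along chromosome 3 set these changes side by side. Only the measured members and the other listed genes of the complex were placed in order, 50 in all, so other genes may lie between them. Among these, Lor and Prr9 formed a run of 2 that rose, and Lce1a1 to Lce1f a run of 6. Lce1h, Lce1i and Kprp formed a run of 3, and Flg, Hrnr, Rptn and Tchh a run of 4. The Sprr genes lay between the first and second of these runs, and the Lce3 genes between the third and the fourth. S100a8 and S100a9, whose products form the inflammation-linked protein calprotectin, lay beside Lor in this order. Both fell (log2 changes -3.56 and -3.71), opposite to Lor and Prr9. Neighbouring genes can share cross-reacting probe sets, and the runs were read after the values were known.

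Among the promoter windows of 300 bases (250 before and 50 after the start), motifs were counted on both strands and may overlap one another. The AP-1 motif TGANTCA stood in 13 of 38 member windows (2 genes have 2 windows) and in 7.81% of all 32851 windows. It stood in 5 of 15 windows of genes that rose, 8 of 23 of the other members and 0 of 10 Lce1 windows. TATAAA stood in 17 of 38, against 13.6% of all windows, and in 2 of 10 Lce1 windows. The Klf motif CACCC stood in 21 of 38 (57.5% of all windows), and the Grhl motif ACCGGT in 0 of 38 (2.33%). The Sox motifs ACAAAG and ACAAT stood in 3 and 15 of 38 (18.7% and 31.0%). In Prr9 the AP-1 match began at position -138 and in Lor at position -48, and those of the Sprr2 genes lay further from the start, beyond the bases printed for Sprr2i. A match is a string of letters and not a shown binding site.

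In lists of genes that work with the envelope, calls were fewer than among the members and ran in both directions, and no difference from the members was tested. The counts of these lists stand against 2.66% of all genes called higher and 3.53% called lower. Of 17 other measured genes in or beside the complex, 2 rose and 3 fell, with a median change of -0.03. Besides Tchh and the calprotectin genes these were S100a3, a follicle protein gene, at 0.75 (adjusted p = 0.0189) and S100a1 at -0.61 (adjusted p = 0.0464). Both of the latter lost their call in each of the fits without 1 array, at adjusted p from 0.0678 to 0.11 and from 0.0866 to 0.19. S100a1 also lost it without _x_at and _s_at probe sets (0.0915), with quantile normalization (0.0568) and with limma's trend and robust options (0.0502). Without _x_at and _s_at probe sets S100a8 was not measured, and 1 gene of the list, S100a9, was lower. Of 22 measured envelope partners and further cross-linking enzymes, 2 rose and 2 fell (median 0.09).

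Cst6, a cystatin that restrains cathepsins in cornifying cells, read 11.66, 11.13, 9.53 and 9.64 and fell (log2 change -1.81, SE 0.19, adjusted p = 0.00241). The cystatin Csta1 was lower by limma (-0.97, adjusted p = 0.0387) and its relative Stfa3 higher (0.67, adjusted p = 0.0486). Csta1 lost its call without SmoM2 replicate 2 (adjusted p = 0.172) or Sox9cKO replicate 2 (0.141), and Stfa3 in each fit without 1 array (0.0788 to 0.224). The fourth called gene of that list was the cytokine Tslp, which is no envelope component and rose by 4.98. Without Sox9cKO replicate 1 the list held 4 higher genes, Krt2 and Krt77 among them. The spinous keratins Krt1 and Krt10 read 12.72, 12.11, 12.54 and 12.86, and 12.98, 12.95, 13.07 and 13.66, and did not pass.

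For filaggrin processing and barrier lipids, the shares called lower stand against 3.53% of all genes. Of 20 measured processing genes 2 fell and none rose by limma (median -0.10). At an unadjusted p under 0.05, Padi3 and Padi4, which convert arginine to citrulline in these proteins, were higher, and neither passed the adjusted test (log2 changes 1.88 and 0.47). Spink5, the inhibitor of the kallikreins that shed corneocytes, read 8.41, 10.03, 5.73 and 7.16 (log2 change -2.77, SE 0.59, adjusted p = 0.0382), and the calpain gene Capn2 changed by -0.65 (adjusted p = 0.049). Spink5 lost its call without SmoM2 replicate 2 (adjusted p = 0.171), without Sox9cKO replicate 1 (0.0972), with probe sets averaged (0.0591) and with limma's trend and robust options (0.297). Capn2 lost it in each fit without 1 array (0.0883 to 0.225), and 1 gene of the list, Padi3, was called higher without Sox9cKO replicate 2.

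Of 22 measured lipid genes 3 fell and none rose by limma (median -0.13), and at an unadjusted p under 0.05 Elovl4 and Lipm were higher. Sdr9c7, a dehydrogenase of the lipid envelope pathway, fell (log2 change -1.31, SE 0.14, adjusted p = 0.00242). The fatty acid hydroxylase Cyp4f39 was at -0.81 (adjusted p = 0.0138) and the glucosylceramide synthase Ugcg at -0.98 (adjusted p = 0.0295). The adjusted p of Cyp4f39 was 0.0755, 0.0883 and 0.0585 without SmoM2 replicate 1, SmoM2 replicate 2 or Sox9cKO replicate 2. That of Ugcg was 0.142 without SmoM2 replicate 2 and 0.112 without Sox9cKO replicate 2. Of 17 measured desmosome and corneodesmosome genes, 1 rose and none fell by limma (median 0.07), and none was lower at an unadjusted p under 0.05. It was Dsg1a, a desmosomal cadherin of the differentiated layers, which read 9.29, 9.25, 10.77 and 11.51 (log2 1.87, SE 0.23, adjusted p = 0.00448).

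Transcription factors linked to late differentiation were called in both directions. Of 40 measured, 5 rose and 5 fell, against 2.66% of all genes higher and 3.53% lower, with a median change of 0.03. Prdm1 (Blimp1), a transcriptional repressor expressed in granular and sebaceous cells, read 8.78, 9.30, 5.95 and 5.57 and fell (log2 change -3.28, SE 0.21, adjusted p = 0.000446). The Ets factor Ehf changed by -1.13 (adjusted p = 0.00597), the grainyhead factor Grhl3 by -1.05 (adjusted p = 0.027) and Nfkbiz by -0.95 (adjusted p = 0.0282). Among those that rose, the POU factor Pou3f1 read 9.88, 9.60, 11.52 and 11.52 (log2 1.78, SE 0.15, adjusted p = 0.000931). Gata3, a factor of epidermis and inner root sheath, rose by 1.11 (adjusted p = 0.00486), the homeodomain protein Hopx by 0.86 (adjusted p = 0.0101) and Dlx3 by 1.48 (adjusted p = 0.0451).

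Klf4, a factor needed for the barrier, read 12.09, 12.47, 11.63 and 11.99 (adjusted p = 0.258). Leaving out SmoM2 replicate 1 or 2 removed the calls of Grhl3 (adjusted p = 0.0799 and 0.168), Hopx (0.0655 and 0.0668) and Dlx3 (0.219 and 0.184). Grhl3 also lost its call without Sox9cKO replicate 2 (0.085), Dlx3 with limma's trend and robust options (0.0729), and Nfkbiz without SmoM2 replicate 2, Sox9cKO replicate 1 or Sox9cKO replicate 2 (0.131, 0.101 and 0.0552) and with probe sets averaged (0.111). The factors called were 2 higher and 5 lower without SmoM2 replicate 1, 2 higher and 2 lower without SmoM2 replicate 2, and 8 higher and 3 lower without Sox9cKO replicate 1.

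**Figure D4:**
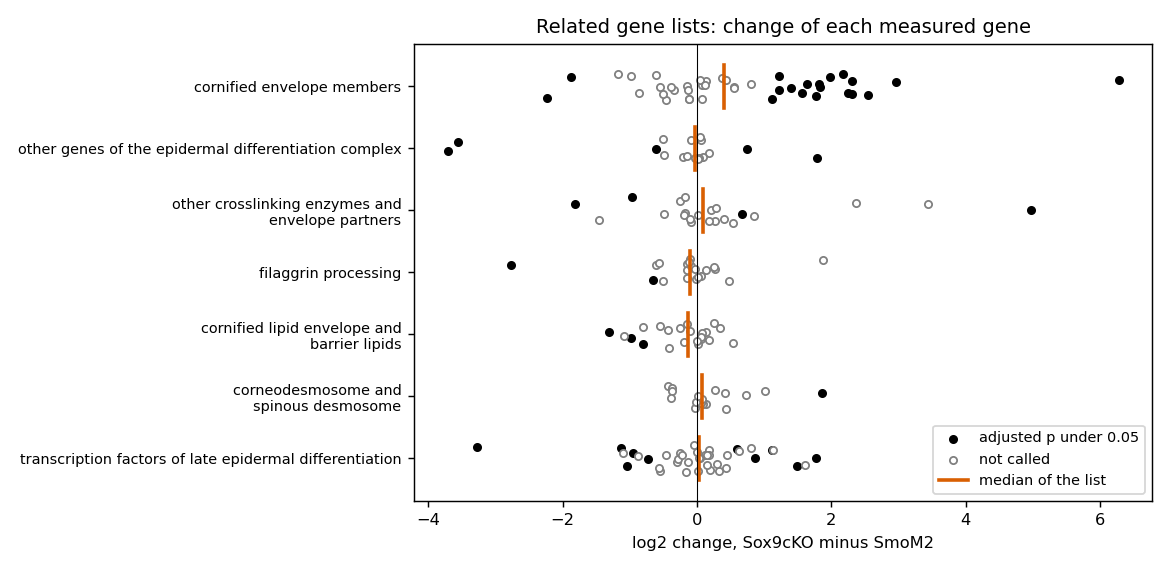
Log2 change (Sox9cKO minus SmoM2, horizontal axis) of each measured gene in the members and in 6 related gene lists. Filled points passed an adjusted p under 0.05, and orange bars are list medians. The members' median is 0.40, and those of the other lists lie between -0.13 and 0.09.

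Markers of other cells moved with the envelope genes in part. Counts of called markers stand against 2.66% of all genes called higher and 3.53% called lower. The inner root sheath and hair cortex list averaged 5.57 and 5.27 in SmoM2 and 6.83 and 6.34 in Sox9cKO, with 5 of 12 measured markers higher, among them the inner root sheath keratins Krt25 and Krt28. The hair cortex keratins Krt31, Krt33a and Krt35 stayed below the array medians on every array. Like the Lce1 genes, this list was higher on replicate 1 in each genotype, as were the sebocyte, Merkel cell and filaggrin processing lists. The companion layer and outer root sheath list averaged 11.11 and 11.11, then 11.49 and 11.09. Of its 7 markers, the companion layer keratin Krt75 rose by 5.22, Barx2 fell (log2 change -1.79, adjusted p = 0.00495), and the other 5 had changes below 0 and did not pass, Krt16 and Krt79 being lower at an unadjusted p under 0.05. The part of these and of the inner root sheath markers in the rise of the members was not tested.

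The spinous and granular marker list averaged 11.95 and 11.89 in SmoM2 and 12.01 and 12.39 in Sox9cKO, with 1 of 9 markers higher (Dsg1a). The basal list averaged 11.29 and 11.56, then 11.07 and 11.12, with none of 9 called by limma and 5 lower at an unadjusted p under 0.05 (Itgb4, Col17a1, Itga6, Krt14 and Dst). The tail scale list was low throughout, between 4.94 and 5.67, with none of 5 called by limma and Krt86 higher at an unadjusted p under 0.05. The sebocyte list averaged 8.57 and 7.69, then 7.32 and 7.05, with 2 of 9 lower by limma (Cidea and Plin2). At an unadjusted p under 0.05, 6 were lower (Mgst1, Elovl3, Scd3 and Pparg besides these) and 0 higher.

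The Langerhans and myeloid list averaged 5.12 and 4.82, then 5.50 and 5.50, with 1 of 7 higher (H2-Aa) and Cd207, Ptprc, Lyz2 and Itgam below the array medians on every array. The T cell list averaged 4.62 and 4.56, then 5.02 and 5.17, with 1 of 5 higher (Thy1, log2 change 1.99). Its other markers, Cd3d, Cd3g, Cd3e and Cd2, changed by 0.03 to 0.19 and did not pass. Of these, Cd3d, Cd3g and Cd2 were below the array medians on every array. The fibroblast list averaged 5.44 and 5.36, then 5.90 and 5.98. In it Dcn was higher, while Col1a1, Col3a1, Pdgfra, Lum and Dpt were below the array medians. Bulge markers averaged 8.70 and 8.87, then 7.90 and 7.78, with 4 of 8 lower (Foxc1, Lrig1, Tcf7l1 and Nfatc1) and 1 higher (Lhx2). Sox9, the deleted gene, is itself among the 8 and did not pass (log2 change -0.75). Melanocyte, Merkel cell and endothelial lists had 0 called genes by limma, and at an unadjusted p under 0.05 the melanocyte gene Dct was higher, the Merkel cell gene Piezo2 lower and 0 endothelial genes passed. The part of these cells in the members' values was not tested.

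**Figure D5:**
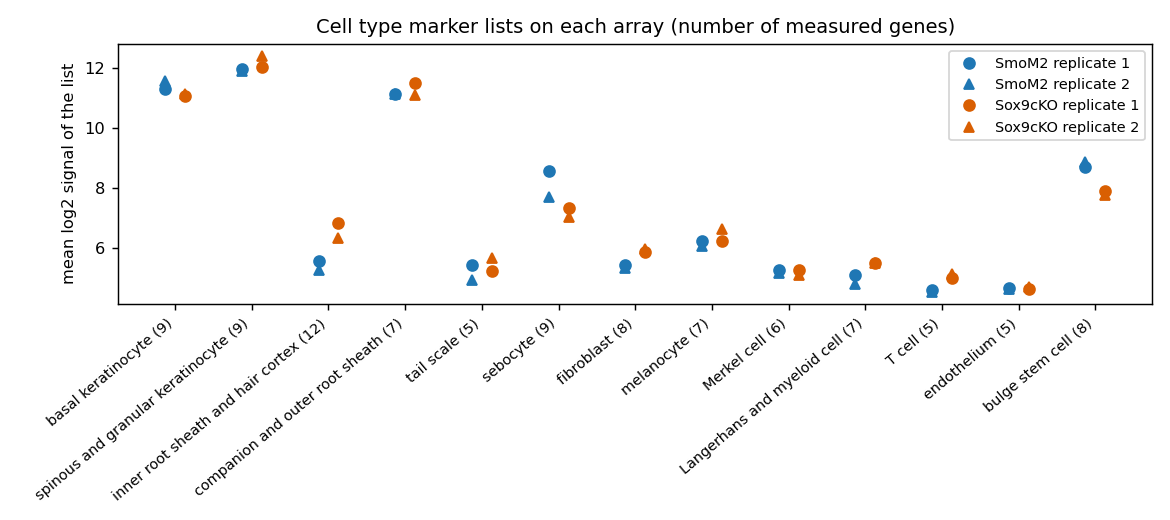
Mean log2 signal (vertical axis) of 13 cell type marker lists on each array, with the number of measured genes in brackets. Blue marks SmoM2, orange Sox9cKO, circles replicate 1 and triangles replicate 2. The inner root sheath list is higher on both Sox9cKO arrays (6.83 and 6.34) than on the SmoM2 arrays (5.57 and 5.27).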

How the data were processed

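The authors deposited a log2 signal for each probe set on each Affymetrix array, made from 100 ng of total RNA labelled with a 3′ kit, per the labels' protocols. How probes were summarised and arrays normalized is unknown here. The submitters' processing notes list R 2.14.0 and do not say what it did. Arrays have no read depth, and their number limits the precision.

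The platform annotation gave 18193 genes with single-symbol probe sets, symbols updated by entrez ID. Probe sets with several symbols entered only the fit over 45037 probe sets. Genotypes were compared with limma 3.58.1 in R 4.3.3 (lmFit, eBayes, two-sided, Benjamini-Hochberg over the whole table), with no replicate term. The smallest p an exact permutation test of 2 arrays against 2 can give is 0.333, so the calls rest on the spread limma shares across genes. A probe set was dim where its mean over the arrays was under 5.46. The procedure was tested on simulated data.

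The members, gene lists and tests were chosen with earlier results of these data known. Every member with a probe set of its own was named, and up to 4 called genes in each direction of each list, by smallest p. Some genes beside these (Krt1, Krt2, Krt10, Krt77, Klf4, Padi3, Padi4, Elovl4 and Lipm, and single markers) were named after their values were seen.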

Additional observations from a re-analysis of the deposited data

How the results depend on the processing

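The count of members that rose, 17, was between 13 and 20 with probe sets averaged per gene, without _x_at and _s_at probe sets, without dim probe sets, with limma's trend and robust options, with quantile normalization or with a replicate block, and between 12 and 17 with 1 array left out. Only 35 of the 42 members were tested without _x_at and _s_at probe sets, and 35 without dim probe sets. The count that fell, 2, was 2 to 5 with 1 array left out, highest without SmoM2 replicate 1. The count of member probe sets that fell, 3, was then 2 to 5, and that of members at least 2-fold lower without overlap, 3, was then 3 to 6. The labels do not say that replicate numbers pair the samples. Deviations of same-numbered arrays correlated at 0.121 over probe sets. With the replicate number as a block, 20 members rose and 7 fell (5 probe sets lower and 26 higher), and 879 genes rose and 1040 fell among all genes, against 484 and 642. With 1 array left out, 199 to 404 genes rose and 335 to 502 fell. Those fits take the lone array to vary as the other genotype does.

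The genes whose sign changed had not passed in the comparison as reported. Casp14, at 0.56, came to -0.32 with its probe sets averaged and -1.19 without the _x_at probe set, where it was called lower (adjusted p = 0.00702), while with the replicate block it was called higher (adjusted p = 0.0337). With 1 array left out, Cdsn ranged from -0.26 to 0.42, Evpl from -0.14 to 0.40, Lce3c from -0.65 to 0.34, Sprr2d from -0.65 to 0.38 and Sprr2f from -1.81 to 0.80. The cause was not tested. With the block Padi3 and Lipm were called higher in their lists. Counts of called genes in the 6 related lists were at most 9 in a direction, and several moved by more than 1.5 times with the block or with 1 array left out. Signals below the array medians limit what can be read from Lce1g, Lce1l, Lce1m, Lelp1 and Sprr3, from the SmoM2 arrays of Hrnr and Lce1c, and from the Sox9cKO arrays of Sprr2i, Sprr2j-ps and Lce3a.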
